A study of Rattus norvegicus with 6 samples.

Results

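Integrins and laminins are 2 gene families that meet at the cell surface, and their transcripts were compared between H9c2 cells with and without knockdown of the long non-coding RNA Tug1. Members were picked by symbol: every symbol of an integrin alpha or beta subunit gene, in the form Itga or Itgb with a number or a single letter, and every symbol of a laminin chain gene, in the form Lama, Lamb or Lamc with a digit. This gave 36 of the 40456 genes in the deposited table, made up of 17 integrin alpha, 8 integrin beta, 5 laminin alpha, 3 laminin beta and 3 laminin gamma genes. Itga2b, whose symbol has both a number and a letter, falls outside the rule.

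H9c2 is an established clonal line of cardiomyoblasts from embryonic rat heart. All 6 libraries carried the label of a wild-type genotype. Their cells were kept for 5 days in medium with 1% serum and 1 µM retinoic acid to drive differentiation. The cells of all 6 then received a locked nucleic acid gapmer at 25 nM for 24 h, a short antisense oligonucleotide that recruits RNase H to the RNA it pairs with. The control group (3 libraries) received a negative control gapmer and the knockdown group (3 libraries) a gapmer against Tug1. A single Tug1 gapmer was used, so effects of lower Tug1 and effects of that oligonucleotide cannot be told apart. The labels do not say whether the replicates came from separate cultures, so the p-values measure the spread between these libraries, which may be technical. Both gapmers are shown because they are the labelled difference between the groups, 5′ to 3′ and without capitals, as no part is singled out.

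Tug1 gapmer: attcagtagacagcta

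negative control gapmer: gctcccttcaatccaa

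An integrin is a receptor made of 1 alpha and 1 beta subunit that spans the membrane, holds matrix proteins outside the cell and links to actin through talin and kindlin inside it. A laminin is a trimer of 1 alpha, 1 beta and 1 gamma chain that builds the sheet-like basement membrane around muscle fibres. In muscle, laminin is held by integrins and by dystroglycan, and loss of either link is known to cause muscle disease. The partner choices are restricted: the subunit encoded by Itgb1 pairs with many alpha subunits, whereas that of Itgb4 pairs only with that of Itga6, and the leukocyte subunits of Itgal, Itgam, Itgax and Itgad pair only with that of Itgb2.

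Total counts ran from 12978548 to 13544337 per library, and 3 counts, taken as the limit of detection, equalled 0.2215 to 0.2312 CPM, the count scaled to a common library size. Tug1 itself had 713, 672 and 718 counts in the controls and 164, 152 and 165 after knockdown, so the label of each library matched its Tug1 level. The cell type is labelled as cardiomyocyte, but the cardiac myosin heavy chain genes Myh6 and Myh7 had at most 3 counts in every library, and 4 of the 8 cardiac markers passed the filter on low counts, 3 of them higher and 1 lower after knockdown. The 8 cardiac markers summed to 369 to 401 CPM in the controls, against 421 to 474 CPM with the Tug1 gapmer. Tnnt2 made up 349 ± 18.0 CPM of that sum in controls against 410.3 ± 25.1 CPM in knockdown libraries (SD, n = 3 each). All 8 skeletal myoblast markers were tested, 7 of them higher and 1 lower after knockdown, and their summed level went from 778 to 790.1 CPM in controls to 1143 to 1187 CPM in knockdown libraries. The 5 fibroblast markers summed to 28419.8 to 29329.8 CPM in the controls, against 27067 to 29071 CPM with the Tug1 gapmer, and of the 4 tested 2 rose and 1 fell. Col1a1 made up 21693 ± 697 CPM of that sum in controls and fell to 18554 ± 1084 CPM in knockdown libraries. Col3a1 rose from 6426 ± 206 to 8928 ± 127 CPM (SD, n = 3 each), so the sum hides moves in opposite directions. For the 4 smooth muscle markers the sums were 890 to 990.3 CPM and 1029 to 1189 CPM, and 2 of the 4 rose. The 5 endothelial markers summed to 2.81 to 4.47 CPM over all libraries, with Pecam1, Cdh5 and Kdr at 3 counts or fewer. Over all tested genes 30.8% were called higher and 30.9% lower by edgeR at an adjusted p under 0.05. The counts of markers that rose or fell are to be read against these shares. The part of the marker shifts in the results below was not tested. In bulk RNA, fewer cells of a type and less RNA per cell cannot be told apart.

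Of the 36 members, 31 passed the filter on low counts and entered the test. By the quasi-likelihood test of edgeR, adjusted by Benjamini-Hochberg over all 14216 tested genes, 20 of the 31 changed at an adjusted p under 0.05, or 64.5% against 61.7% of all tested genes. The 20 were 11 that fell and 9 that rose, where 30.9% of all tested genes fell and 30.8% rose. The libraries of the groups did not overlap for 18 of the 31, against 65.6% of all tested genes; 10 were lower, against 32.6%, and 8 higher, against 33.0%. Among the 19 members at a mean of at least 10 CPM, 73.7% changed, against 70.7% of all genes at that level. The share called lay near that of all genes, so the number of changed members is no result about these families. Their median log2 fold change, knockdown over control, was 0.07 against 0.00 over all tested genes. All members together held 0.865% to 0.882% of the counts of each control library and 0.770% to 0.794% of each knockdown library.

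**Figure D1:**
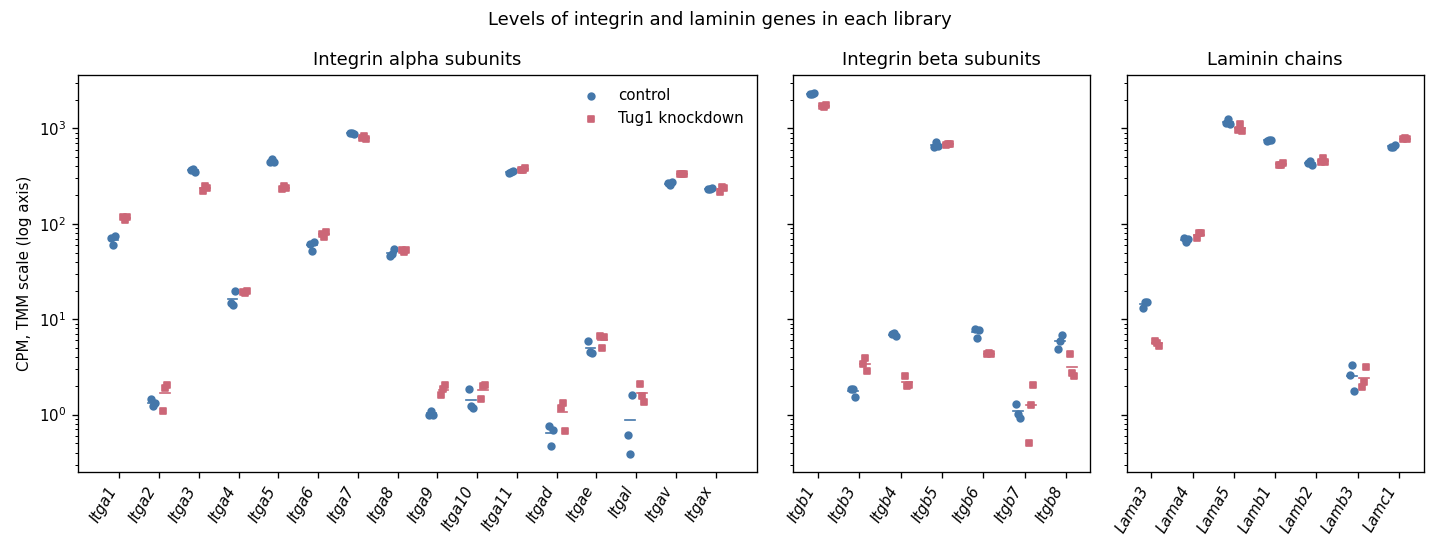
Level of integrin alpha, integrin beta and laminin genes in each library, in CPM after TMM scaling on a log axis. Each point is a library (circles control, squares Tug1 knockdown, 3 each) and short lines are group means. Levels are not divided by transcript length and are to be compared only between the groups of the same gene, as for Itga5, whose controls lie at 444 to 483 CPM and whose knockdown libraries lie at 229.6 to 251 CPM.

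The members that fell and those that rose differed in how far their calls depended on the processing. All 11 falls stayed called and lower under each of 16 alternatives of scaling, test, filter and left-out library. Only 4 of the 9 rises did so, those of Itga1, Itga6, Itgav and Itgb3. The alternatives include a stricter threshold of 0.01. Itga4, Itga9, Itgal and Lama4 did not meet it in the main fit (adjusted p by edgeR 0.0115 to 0.0403), whereas no fall was above 0.00244. The share of all genes that kept a call in every alternative was not computed, so the difference between falls and rises is a description. An alternative with an offset for the trend of fold change with genomic span (the length offset) gave 5 members higher and 14 lower, against 30.3% higher and 31.8% lower of the 13084 genes it could test (61.3% of members and 62.1% of genes changed). Scaling by library totals gave 11 higher and 11 lower members, against 61.9% of all genes changed, 34.5% higher and 27.4% lower. The median span was 59.5 kb for the tested members and 22.4 kb for all tested genes with a span, and 28 of the 31 members were longer than that median. Members that rose had a median span of 88.1 kb and those that fell 48.1 kb. Over all genes, 87.8% of the falls and 83.2% of the rises kept call and direction with this offset.

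**Figure D2:**
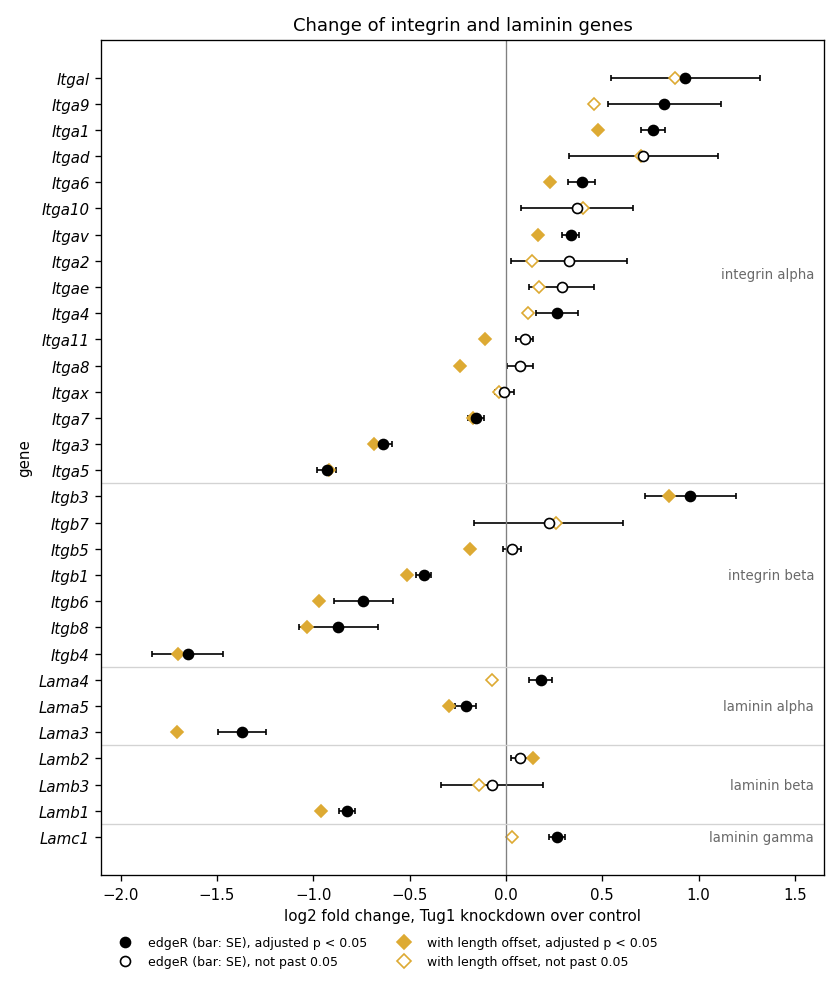
Log2 fold change, Tug1 knockdown over control, of tested integrin and laminin genes, grouped by class. Circles are edgeR values with bars of 1 SE and diamonds are values with the offset for genomic span, filled where the adjusted p is under 0.05; the diamonds of Itga11, Itga8, Itgb5 and Lama4 lie on the other side of 0 from their circles.

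Among the laminin beta chains, the chain most changed was Lamb1, which is part of most laminins of early development. Lamb1 had 733, 755 and 758 CPM in the controls and 414, 417 and 437 CPM in the knockdown libraries. The 3 knockdown values lay close together and far below all controls. Its log2 fold change was -0.83 (standard error 0.0422, adjusted p by edgeR 1.73e-13), so that 56.4% of the control level was left. Lamb2, the chain of mature muscle and synaptic basement membrane, had 435, 455 and 416 CPM in the controls, against 440.5, 489 and 446 CPM after knockdown. Those groups overlapped, and its value of 0.07 (SE 0.0481, edgeR adjusted p 0.185) did not pass. Scaling by library totals (0.13) or the length offset (0.14) brought it past the threshold as higher. Lamb3, the epithelial beta chain, was at 23 to 43 counts in controls and 27 to 42 after knockdown and did not pass either (-0.07, SE 0.263).

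Counts of the beta chains within a library do not depend on how libraries are scaled. Lamb1 gave 62.6%, 62.2% and 64.5% of the laminin beta counts in the controls and 48.3%, 45.9% and 49.3% after knockdown, while Lamb2 went from 36.7% ± 1.12 to 51.9% ± 1.80 (SD, n = 3 each). Such a share also depends on transcript length, so it orders the groups and not the chains. The exact permutation test of 3 against 3 libraries cannot go below 0.1, and the share of Lamb1 reached that value (two-sided, 0.141 after Benjamini-Hochberg adjustment over 31 chain shares).

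Lamc1, the gamma chain of most laminins, had 637, 644 and 670.4 CPM in the controls, against 774, 788 and 782 CPM with the Tug1 gapmer. All knockdown libraries lay above all controls, with a log2 fold change of 0.26 (standard error 0.0409, adjusted p by edgeR 6.61e-06). With the length offset this rise was no longer called (0.03, edgeR adjusted p 0.524). Lamc3 had 1 to 4 counts in the libraries and was not tested.

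The ratio of Lamb1 to Lamc1 counts, whose products join in the same trimers, was 1.15, 1.17 and 1.13 in the controls and 0.535, 0.529 and 0.559 after knockdown. That ratio was chosen after the values were seen and is given as a description. Its change by a factor of 0.470 is free of library scaling.

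Among the alpha chains, which give a laminin its receptor binding, Lama5 and Lama3 fell. Lama3, the alpha chain of epithelial laminin, had 171, 198 and 197 counts in controls and 81, 77 and 70 after knockdown. That was the furthest fall among the laminins, at a log2 fold change of -1.37 (standard error 0.126, adjusted p by edgeR 2.48e-09). Lama5, widely used in adult basement membranes, had 1149, 1247 and 1103 CPM in the controls, against 969, 1110.0 and 949 CPM after knockdown. The groups overlapped, since knockdown replicate 2 lay above control replicate 3. Its smaller fall of 0.21 on the log2 scale (SE 0.0540, edgeR adjusted p 0.00187) kept its call in every alternative. Lama4, a chain of vessels and developing muscle, had 70.3, 64.6 and 68.9 CPM in the controls, against 71.7, 79.7 and 79.7 CPM after knockdown. Its rise of 0.18 (SE 0.0597, edgeR adjusted p 0.0115) did not pass without control replicate 2 (0.14) or without knockdown replicate 3 (0.16), and its sign turned with the length offset (-0.07).

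The chains of the classical embryonic and muscle laminins had few counts. Lama2, the alpha chain of adult muscle laminin whose loss causes congenital muscular dystrophy, had 5, 1 and 2 counts in controls and 2, 2 and 1 after knockdown. Lama1 had 0 counts in 5 libraries and 1 count in knockdown replicate 3. Neither was tested.

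Of the 8 integrin beta genes 7 were tested, and 4 fell and 1 rose. That was 71.4% changed, against 61.7% of all tested genes, of which 30.9% fell and 30.8% rose. Itgb1, the shared partner of most matrix receptors, had 2307, 2278 and 2361 CPM in the controls, against 1710.4, 1688 and 1769 CPM after knockdown. No library of either group came near the other group. The log2 fold change was -0.43 (standard error 0.0398, adjusted p by edgeR 3.39e-09), or 74.4% of the control level. It gave 76.9% ± 1.34 of all integrin beta counts in controls and 71.0% ± 0.564 after knockdown (SD, n = 3 each).

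Itgb4, which joins epithelial cells to laminin through hemidesmosomes, had 91, 92 and 86 counts in controls and 35, 27 and 27 after knockdown. This was the furthest move of any member, with 31.8% of the control level left (log2 fold change -1.65, SE 0.184, edgeR adjusted p 5.54e-08). Itgb6, an epithelial receptor subunit that activates latent TGF-beta, had 102, 83 and 99 counts in controls and 60, 60 and 57 after knockdown (-0.74, SE 0.154). Itgb8, which shares that role, had 63, 76 and 89 counts in controls and 59, 37 and 34 after knockdown (-0.87, SE 0.205). The control and knockdown libraries did not overlap for Itgb6 or Itgb8, although knockdown replicate 1 of Itgb8 came close to control replicate 1. Itgb3, the vitronectin receptor subunit of platelets, bone and migrating cells, rose from 24, 24 and 20 counts to 47, 53 and 38 (0.96, SE 0.235, edgeR adjusted p 0.00117). All 4 of these genes lay under 8 CPM in every library.

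The other vitronectin receptor subunit gene, Itgb5, had 634, 722 and 662 CPM in the controls, against 677, 695 and 691 CPM with the Tug1 gapmer. These values overlapped, and the log2 fold change of 0.03 (standard error 0.0463, adjusted p by edgeR 0.567) did not pass. With the length offset it was called lower (-0.19, edgeR adjusted p 0.0017). Itgb7, a lymphocyte subunit, had 7 to 27 counts in the libraries and did not pass.

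Among the alpha subunits that bind fibronectin and vitronectin, Itga5 fell and Itgav rose. Itga5, the alpha subunit of the main fibronectin receptor, had 445, 483 and 444 CPM in the controls, against 229.6, 251 and 239 CPM after knockdown. All 3 knockdown libraries were far under the lowest control, at a log2 fold change of -0.93 (standard error 0.0482, adjusted p by edgeR 2.1e-13). The value was -0.92 with the length offset. Itgav, which pairs with Itgb1, Itgb3, Itgb5, Itgb6 or Itgb8, had 265, 253 and 274 CPM in the controls, against 335, 335 and 329.7 CPM after knockdown. It rose by 0.34 (SE 0.0448, edgeR adjusted p 8.09e-07), and by 0.17 with the length offset, where it still passed. The count ratio of Itga5 to Itgav, again chosen after the values were seen, went from 1.68, 1.91 and 1.62 in controls to 0.686, 0.750 and 0.726 after knockdown. Itga8, a further subunit that binds the RGD motif, had 46.0, 48.2 and 54.5 CPM in the controls, against 53.1, 50.5 and 52.8 CPM after knockdown. Its value of 0.07 (SE 0.0671) did not pass, and with the length offset it was called lower (-0.24, edgeR adjusted p 0.00243).

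The laminin-binding alpha subunits, Itga3, Itga6 and Itga7, did not move together. Itga3, the subunit of a receptor for the laminins of Lama5 and Lama3, had 369, 379 and 351 CPM in the controls, against 222, 249 and 235 CPM with the Tug1 gapmer. The groups lay well apart, with a log2 fold change of -0.64 (standard error 0.0488, adjusted p by edgeR 1.24e-10). Itga6, the partner of both Itgb1 and Itgb4, had 800, 668 and 839 counts in controls and 1090, 974 and 1091 after knockdown. All knockdown libraries lay above the controls (0.39, SE 0.0715, edgeR adjusted p 5.21e-05). The rise of Itga6 was 0.23 with the length offset and still passed. Itgb4 counts per Itga6 count went from 0.118 ± 0.0180 to 0.0282 ± 0.00370 (SD, n = 3 each), which is 0.239 of the control ratio and a description chosen after the values were seen.

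Itga7, the main laminin receptor subunit of differentiated muscle, had 892, 901 and 874 CPM in the controls, against 798, 825 and 771 CPM with the Tug1 gapmer. The groups did not overlap, and the change was small (-0.16, SE 0.0415, edgeR adjusted p 0.00244). While the skeletal myoblast markers named above were mostly higher after knockdown, Itga7 was at 89.8% of its control level.

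Of the collagen-binding alpha subunits Itga1 rose, and Itga2, Itga10 and Itga11 did not pass. Itga1, a receptor for the collagen IV of basement membranes and for laminin, had 916, 783 and 955 counts in controls and 1623, 1505 and 1561 after knockdown. Every knockdown library lay far above every control, at a log2 fold change of 0.76 (standard error 0.0629, adjusted p by edgeR 4.5e-10). The rise was 0.48 with the length offset and still passed. Itga2, its neighbour with 0 protein-coding genes between them in the RefSeq gene table of GRCr8, had 19, 16 and 17 counts in controls and 15, 26 and 27 after knockdown and did not pass (0.33, SE 0.303). Itga11, a fibrillar collagen receptor of mesenchymal cells, had 341, 349.6 and 358 CPM in the controls, against 367, 368 and 387 CPM with the Tug1 gapmer. The libraries did not overlap, but the difference was small and missed the threshold (0.10, SE 0.0436, edgeR adjusted p 0.057). It passed as higher with library totals (0.15), with the replicate number as a block (0.10, edgeR adjusted p 0.0306) and without control replicate 3 (0.12), and as lower with the length offset (-0.11). Itga10, a collagen receptor of cartilage, had 15 to 27 counts over all libraries and did not pass.

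The other alpha genes include those best known from blood cells. Itga4, a subunit of leukocyte receptors, had 192, 182 and 256 counts in controls and 269, 257 and 263 after knockdown. The highest control came within the range of the knockdown libraries in CPM. Its value of 0.27 (SE 0.109, edgeR adjusted p 0.0387) did not pass with the length offset (0.12), nor without control replicate 1 (0.20), control replicate 2 (0.17), knockdown replicate 1 (0.27) or knockdown replicate 3 (0.25), and was 0.44 without control replicate 3. Itga9, its closest relative and no leukocyte-specific gene, had 13, 14 and 13 counts in controls and 22, 25 and 27 after knockdown (0.82, SE 0.292, edgeR adjusted p 0.0178). It did not pass without control replicate 1 (0.80), control replicate 3 (0.81) or knockdown replicate 3 (0.74), nor with the length offset (0.46). Itgal had 8, 5 and 21 counts in controls and 29, 21 and 18 after knockdown, which overlap. Its value of 0.93 (SE 0.386, edgeR adjusted p 0.0403) rested on single libraries. It was 1.73 without control replicate 3, and it did not pass without control replicate 1 (0.73), control replicate 2 (0.58), knockdown replicate 1 (0.73) or knockdown replicate 2 (0.99), nor with the length offset (0.88). DESeq2's Wald test called none of these 3 genes. Itgae, at 57 to 93 counts, and Itgad, at 6 to 18 counts, did not pass.

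Itgb2, the only beta partner of the subunits of Itgal, Itgam, Itgax and Itgad, had 0 counts in every control and 3, 2 and 3 counts after knockdown. Those values are at or under the limit of 3 counts, so no fold is given. Itgam had 1 to 6 counts. Itgax stood apart from them with 3021, 3010 and 3053 counts in controls and 2971, 3251 and 3181 after knockdown, and it did not differ beyond the spread (-0.01, SE 0.0489, edgeR adjusted p 0.890). The RefSeq gene table of GRCr8 lists Itgax also as an older symbol of its neighbour Itgad, and the annotation used for counting is not given in the sources used here, so the identity of this entry is uncertain. Ptprc, the common leukocyte marker, had 0 counts in every library. The 5 leukocyte markers, of which Itgam is itself a member, summed to 11.1 to 12.8 CPM in the controls, against 15.7 to 17.5 CPM after knockdown. Only 2 of them were tested. Cd68 rose from 3.6 ± 0.992 to 7.65 ± 1.16 CPM (SD, n = 3 each), and Csf1r did not pass (0.21, SE 0.128).

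Of the chains and subunits known mainly from epithelium, a grouping made after the values were seen, Lama3, Itgb4 and Itgb6 fell and Lamb3 did not pass. Over the 4 epithelial markers the summed level was 77.0 to 89.3 CPM in the controls, against 52.8 to 57.2 CPM after knockdown. Krt8 made up 82.7 ± 6.05 CPM of it in controls against 54.2 ± 2.46 CPM in knockdown libraries (SD, n = 3 each), and Epcam, Cdh1 and Krt18 had at most 3 counts in every library. The part of this shift in the falls was not tested.

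**Figure D3:**
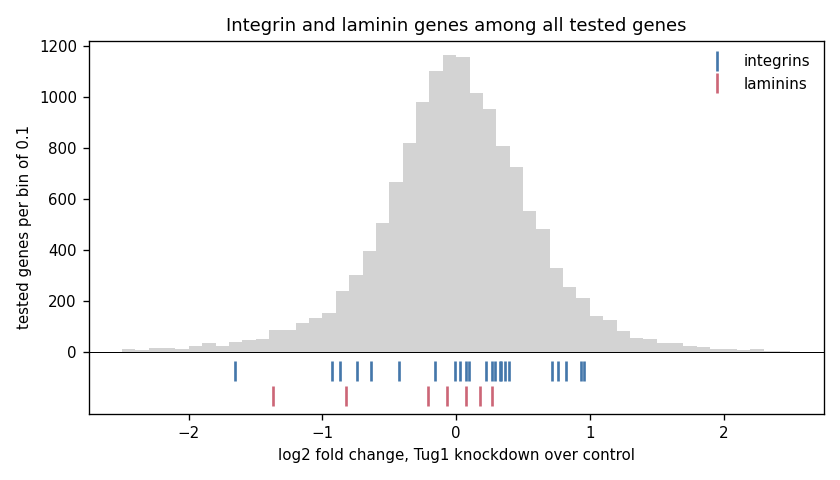
Distribution of log2 fold changes, Tug1 knockdown over control, of tested genes (grey bars, genes per bin) with tested integrins and laminins as ticks below. Members spread over much of the distribution, from -1.65 for Itgb4 to 0.96 for Itgb3.

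The promoters of members with the clearest moves are shown to let the sequence be read beside the values. Taken were called members with a log2 fold change of 0.5 or more in size and at least 50 CPM in each group, and Lama3, added after its values were seen. Each sequence is the 250 bases before the annotated start in RefSeq, build GRCr8, 5′ to 3′ on the strand of the gene. Capitals mark matches on either strand to GGGCGG (the GC box of Sp and KLF factors), GGAATG (TEAD), TGANTCA (AP-1) or CAGCTG (an E-box of myogenic factors). In the windows shown no match overlapped another, and TGANTCA and CAGCTG read the same on both strands.

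Itga5 (chr7:136381306-136381555, minus strand): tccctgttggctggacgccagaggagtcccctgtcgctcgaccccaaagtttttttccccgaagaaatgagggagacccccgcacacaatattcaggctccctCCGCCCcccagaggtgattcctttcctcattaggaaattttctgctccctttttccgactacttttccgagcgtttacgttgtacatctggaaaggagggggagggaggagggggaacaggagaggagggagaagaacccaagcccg

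Itga3 (chr10:80518902-80519151, minus strand): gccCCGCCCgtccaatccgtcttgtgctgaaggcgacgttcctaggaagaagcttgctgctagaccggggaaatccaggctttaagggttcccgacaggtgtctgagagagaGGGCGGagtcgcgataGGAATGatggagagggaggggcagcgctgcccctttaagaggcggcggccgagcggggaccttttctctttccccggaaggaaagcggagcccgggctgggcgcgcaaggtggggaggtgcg

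Lamb1 (chr6:53562846-53563095, plus strand): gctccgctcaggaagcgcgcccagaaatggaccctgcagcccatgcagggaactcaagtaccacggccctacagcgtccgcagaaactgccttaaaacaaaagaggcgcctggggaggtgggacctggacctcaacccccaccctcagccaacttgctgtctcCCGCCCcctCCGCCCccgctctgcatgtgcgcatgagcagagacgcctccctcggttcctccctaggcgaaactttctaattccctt

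Lama3 (chr18:3952517-3952766, plus strand): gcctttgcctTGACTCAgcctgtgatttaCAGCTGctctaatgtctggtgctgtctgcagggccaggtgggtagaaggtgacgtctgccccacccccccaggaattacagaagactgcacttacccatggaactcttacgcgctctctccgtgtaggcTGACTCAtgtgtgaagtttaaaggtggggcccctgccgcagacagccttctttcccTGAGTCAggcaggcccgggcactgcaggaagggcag

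Itga1 (chr2:48545284-48545533, minus strand): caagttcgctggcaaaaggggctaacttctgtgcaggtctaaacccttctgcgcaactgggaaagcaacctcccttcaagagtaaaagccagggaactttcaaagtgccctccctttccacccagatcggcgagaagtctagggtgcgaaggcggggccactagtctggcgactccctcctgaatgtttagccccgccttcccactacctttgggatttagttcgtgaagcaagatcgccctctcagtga

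In these windows Itga5 held 1 GC box, Lamb1 held 2, and Itga3 held 2 and a single TEAD match. Lama3 held 3 AP-1 matches and 1 E-box, and Itga1, the gene of the group that rose, held 0 matches. A GC box was present in 11 of the 23 tested members with a window (47.8%) and in 30.5% of all 33469 windows. The member windows were also richer in G and C, with a median of 59.6% against 51.2% over all windows, and 20 of the 23 lay above the latter. The full set also includes windows of genes that were not tested here, whereas the member windows are all of tested genes. The part of base composition or of this choice of genes was not tested, for the GC box share or the motif shares that follow. The TEAD motif was in 5 of 23 (21.7%) against 12.1%, the AP-1 motif in 2 of 23 against 6.34%, and the E-box in 2 of 23 against 12.0%. The TEAD matches lay in Itga3, Itgb1 and Itgb8, which fell, in Lamc1, which rose, and in Itga10, which did not pass. A match describes these letters only and shows no binding.

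Genes around the integrins and laminins were read from 7 lists of 124 genes, written from general knowledge but with earlier results of these data known. Over all tested genes 61.7% changed, 30.8% higher and 30.9% lower, and the counts of each list are to be read against these shares. In the basement membrane list, which holds the other partners of laminin, 6 of 12 tested genes changed, 2 higher and 4 lower, or 50.0%, with a median log2 fold change of -0.09. With the length offset 2 were higher and 7 lower. The chains of collagen IV, the network that lies beside laminin, were the ones that rose. Col4a1 went from 560.1 ± 3.84 to 889 ± 32.6 CPM (0.67, SE 0.0420) and Col4a2 from 590 ± 7.76 to 805 ± 26.1 CPM (0.45, SE 0.0417; SD, n = 3 each). With the length offset the value of Col4a2 was 0.20. Agrn, a heparan sulphate proteoglycan that binds laminin, fell from 142 ± 9.02 to 98.3 ± 4.12 CPM (-0.53, SE 0.0558).

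Of 16 tested laminin receptors other than integrins and genes acting on them, 9 rose and 2 fell. The share changed, 68.8%, lay near that of all genes, and the median was 0.42, or 0.19 with the length offset, where 10 were higher and 3 lower. Utrn, the autosomal relative of dystrophin, rose from 44.7 ± 3.24 to 78.1 ± 1.04 CPM (0.80, SE 0.0614), and its value was 0.38 with the length offset. Dystroglycan itself, the receptor of this complex, was at 1146 ± 36.9 CPM in the controls, against 899.8 ± 17.0 CPM after knockdown. Dag1, its gene, was singled out after its values were seen and fell by 0.35 (SE 0.0413).

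Of 19 tested matrix ligands of integrins, 11 fell and 4 rose, or 78.9% changed, with a median of -0.17. Thbs1, a matricellular ligand, fell from 2172 ± 66.1 to 1331 ± 102 CPM (-0.71, SE 0.0483), and Icam1, the ligand of leukocyte integrins, from 186 ± 7.44 to 120.1 ± 9.61 CPM (-0.63, SE 0.0560). Ltbp1, which anchors latent TGF-beta, rose from 249.9 ± 6.77 to 504 ± 7.41 CPM (1.01, SE 0.0433), or by 0.62 with the length offset. Fn1, fibronectin, the ligand of the Itga5 receptor, was named after its values were seen. It had 6189 ± 93.2 CPM in the controls, against 4948 ± 301 CPM with the Tug1 gapmer (-0.32, SE 0.0440).

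**Figure D4:**
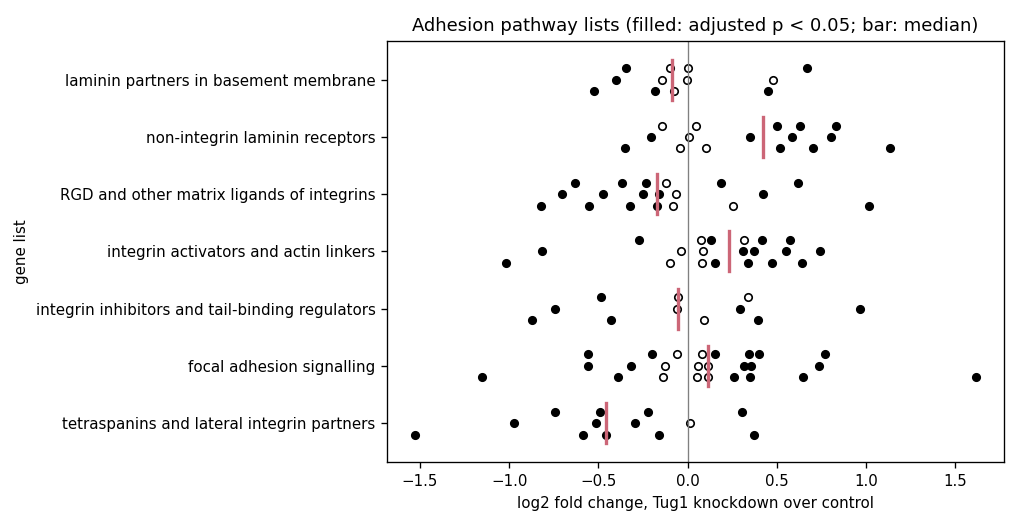
Log2 fold change, Tug1 knockdown over control, of each tested gene in 7 lists of adhesion genes. Filled points have an edgeR adjusted p under 0.05 and bars are medians, lowest for the tetraspanins and lateral partners at -0.46 and highest for the non-integrin laminin receptors at 0.42.

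Lateral partners of integrins in the membrane were lower in most cases. Of 13 tested tetraspanins, syndecans and other partners, 10 fell and 2 rose, 92.3% changed against 61.7% of all genes, and the median was -0.46. Cav1, the caveolin that couples integrins to signalling, fell from 380.4 ± 15.1 to 132 ± 10.3 CPM (-1.53, SE 0.0539). Sdc1, a syndecan, fell from 240 ± 8.35 to 122 ± 5.33 CPM (-0.97, SE 0.0498), and the tetraspanin gene Tspan4 from 367 ± 22.2 to 219 ± 10.0 CPM (-0.74, SE 0.0504). Cd151, the tetraspanin that binds the laminin receptors of Itga3 and Itga6, was chosen after its values were seen and fell from 626 ± 36.0 to 444 ± 3.25 CPM.

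Inside the cell, 14 of 20 tested integrin activators and actin linkers changed, 11 higher and 3 lower. With the length offset, 6 were higher and 4 lower, so the count of rises depends on that choice. Tns1, a linker of integrin tails to actin, rose (0.64, SE 0.0430, and 0.32 with the length offset), and the talin-binding linker Vcl fell from 305 ± 15.5 to 173 ± 7.75 CPM (-0.82, SE 0.0498). Among 11 tested inhibitors and tail-binding regulators, 3 rose and 4 fell, and with the length offset 5 were higher and 5 lower. Dab2, an endocytic adaptor of integrins, rose from 129 ± 5.88 to 252 ± 5.47 CPM (0.96, SE 0.0487), whereas Dok1 (-0.74, SE 0.0687) and Krit1 (-0.48, SE 0.0549) fell. In the focal adhesion signalling list 11 of 25 tested genes rose and 6 fell, and with the length offset 11 were higher and 9 lower. Crkl, an adaptor downstream of focal adhesion kinase, fell from 72.7 ± 1.16 to 32.7 ± 1.98 CPM (-1.15, SE 0.0631). Ptk2b, the relative of that kinase, rose from 6.37 ± 0.538 to 19.5 ± 1.12 CPM (1.61, SE 0.114), and Lpp, an actin-associated LIM protein, rose by 0.77 (SE 0.0595), or by 0.32 with the length offset. All 21 genes that the rule for named genes picked in these lists, including those not reported here, kept their direction under each of the 16 alternatives and passed its threshold there.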

How the data were processed

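Stranded poly-A RNA sequencing was done on 6 libraries of rat H9c2 cells. The deposited values are raw read counts by gene, in whole numbers; STAR 2.5, fastp 0.14.1 and FastQC 0.11.7 were used per the submitters' processing notes. The counting tool, its use of strand and multi-mapped reads, the build and the annotation are not given in the sources used here, so genes with similar or overlapping neighbours may share reads.

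Groups came from the labels (3 control, 3 knockdown). Genes were filtered with filterByExpr (minimum count 10, minimum total 15), scaled by TMM and tested in edgeR 4.0.16 (R 4.3.3) by the quasi-likelihood test without a replicate block, with Benjamini-Hochberg adjustment over 14216 genes at 0.05. Members were described by name; in each pathway list the 3 called genes with the smallest p were named, and others are marked as chosen after their values were seen. Shares within a chain class use plain counts in place of counts per kb, since transcript lengths were not used here, and were compared by exact permutation. Alternatives were DESeq2 1.42.0, other scalings and filters, a length offset from genomic span (RefSeq GRCr8), a replicate block and leaving out each library. The test was run on simulated counts with 200 changed genes. Members and lists were chosen with earlier results of these data known. Values of 4 single genes, 1 of them a member, are not reported here and are left out of the figures that name genes; counts and medians include them.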

Additional observations from a re-analysis of the deposited data

How the results depend on the processing

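Over the alternatives 7353 to 8987 of all genes changed, and 16 to 22 members, 5 to 11 of them higher and 11 to 14 lower. The number of members that rose was 5 at an adjusted p under 0.01, with the length offset, and with the length offset and replicate block. Leaving out each library in turn gave 8128 to 8410 changed genes and 17 to 20 members, 6 to 9 higher and 11 lower. Over all genes, deviations of same-numbered libraries from their group means correlated at -0.00531, 0.0298 and 0.027. Those correlations do not settle whether the replicate numbers pair the libraries. With the replicate block 8848 genes and 21 members changed. The block lowered the SE of some members, as for Lama5 (0.0540 to 0.0343), and raised that of others, as for Itgb8 (0.205 to 0.217). Signs turned with the length offset, and with the length offset and replicate block, for Itga11 (-0.1096, -0.1095), Itga8 (-0.239, -0.2375), Itgb5 (-0.1873, -0.1845) and Lama4 (-0.0731, -0.0737). With library totals Itgax was at 0.0442. Leaving out 1 library at a time gave values on both sides of 0 for Itgax (-0.0331 to 0.0446), Itgb5 (-0.01 to 0.0838), Itgb7 (-0.2898 to 0.6066) and Lamb3 (-0.2962 to 0.1544), none of them called in the fit with all libraries. The cause was not tested. In counts simulated for this comparison of 14216 genes, 14016 genes were left unchanged. The test called 73% of the 100 genes changed by 0.5 on the log2 scale and 89% of the 100 changed by 1. Of the unchanged genes it called 0.0785%. In the data 61.7% of tested genes were called, a far larger share than was changed in the simulation. The simulated rates therefore describe the simulated counts only, and rates for data with so many changes were not tested. With 3 libraries a group no exact test goes below 0.1.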
